A study of Mus musculus with 20 samples.

Results

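The interaction of senolytic treatment and mechanical overload in plantaris muscle was taken over 20 old mice as the overload response with dasatinib and quercetin (D+Q) less the overload response with vehicle. It asks whether D+Q changed gene expression differently in overloaded than in unloaded muscle. All 20 mice of the series enter this contrast, and 15700 of the 22660 genes of the count table, those with at least 10 counts in at least 5 mice, were tested.

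The mice were male C57BL/6 J animals labelled 2 years old, and each of the 4 groups held 5 animals. Mechanical overload (MOV) was produced in both hindlimbs by cutting away part of the soleus and gastrocnemius, so that the plantaris took over their load, and sham mice had only the skin opened. D+Q mice received dasatinib at 5 mg/kg and quercetin at 50 mg/kg by gavage and the others received vehicle, and muscle was taken 14 days after surgery. The treatment protocol places the gavages on days 7 and 10 of overload. The description of the series instead has sham mice dosed on days 7 and 14. If the description holds, the time since the last dose differed between sham and MOV mice, and this cannot be told apart from the surgery in the interaction.

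Dasatinib inhibits SRC-family, ABL and other tyrosine kinases, and quercetin is a plant flavonoid. Given together and intermittently, they kill a share of senescent cells, which stop dividing and secrete cytokines and proteases. Overload of the plantaris drives fiber growth together with matrix remodelling, macrophage entry and capillary growth. An interaction is a difference of differences: a value of 0 means that D+Q moved a gene by the same factor in sham and in MOV muscle. A negative value means a lower ratio of D+Q to vehicle in MOV than in sham muscle.

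Total counts per mouse lay between 17887495 and 26234505. The skeletal muscle fiber markers, all 10 of which were tested, summed to 146554 to 166509 CPM, which are counts scaled to a common library size, in vehicle sham mice and 155798 to 166658 CPM in D+Q sham mice. In vehicle MOV and D+Q MOV mice they summed to 85590.5 to 117618 CPM and 83213 to 103244 CPM. The first principal component held 69.2% of the variance and separated MOV from sham mice. In whole muscle, fewer cells of a type and less RNA per cell cannot be told apart.

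Overload changed most genes to a similar extent with and without D+Q. A gene is called here where edgeR's quasi-likelihood test gave it a Benjamini-Hochberg adjusted p under 0.05. By this rule 9785 genes (62.3%) responded to MOV in vehicle mice and 10080 (64.2%) in D+Q mice. Of these, 8672 genes were called in both treatments and 8666 of them changed in the same direction. A gene called with 1 treatment only was not thereby shown to respond differently. Of 2521 such genes, 432 had an unadjusted interaction p under 0.05, beside 5.71% of all genes, and 1 had an adjusted p under 0.05. The same mice chose these genes for unlike calls, which favours a low unadjusted interaction p. A set of 3632 genes was called and changed at least 2-fold on the mean of both overload responses. Among them the response was larger with D+Q in 1711 (47.1%). With 1 mouse left out this share ran from 38.5% to 56.7%, so which treatment had the larger share turned with a single mouse. The share was 47.8% of 3092 rising genes and 43.1% of 540 falling genes, and the median difference of the responses, signed by direction, was -0.0226 on the log2 scale. The slope between the D+Q and the vehicle response over these genes was 0.950 by total least squares, which allows for error in both responses. Pearson's r was 0.917, where genes share the same libraries and the choice of large mean responses itself raises r.

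**Figure D1:**
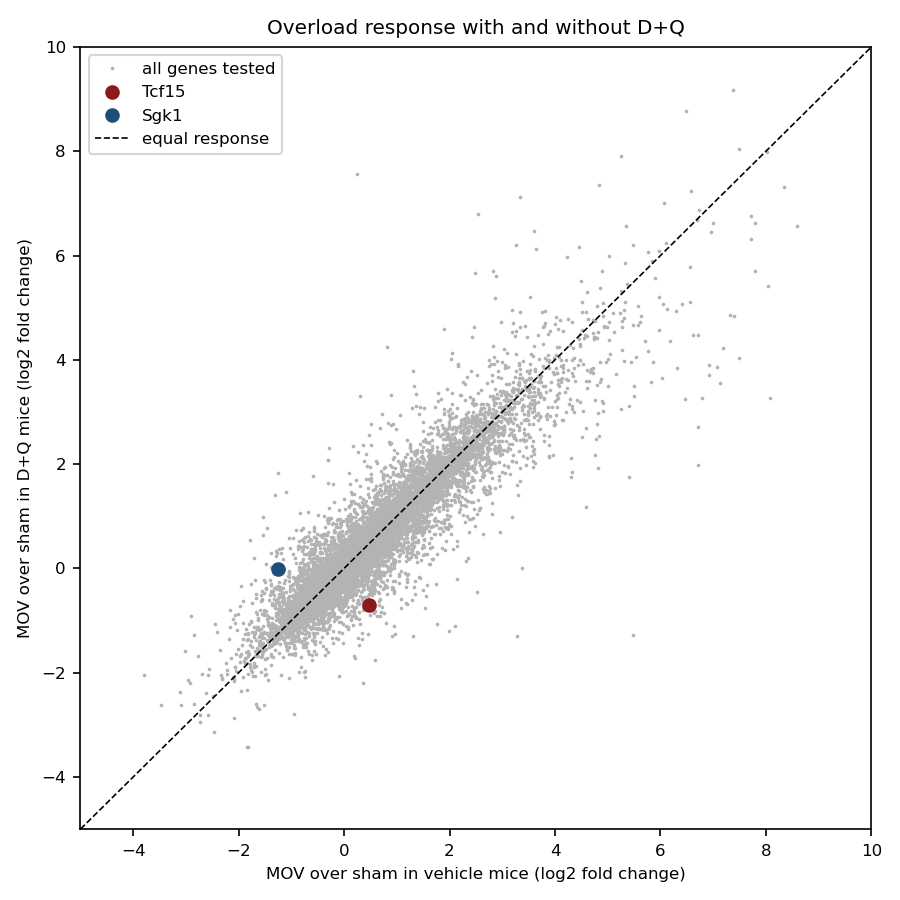
Overload response of each of 15700 genes as the log2 fold change of MOV over sham in vehicle mice (x axis) and in D+Q mice (y axis), 5 mice in each group, with the line of equal response dashed. Tcf15 lies below the line at 0.47 and -0.69 and Sgk1 above it at -1.25 and -0.00277, while most genes lie along it.

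The interaction was called for 2 genes, Tcf15 with a lower and Sgk1 with a higher value (0.0127% of the genes tested, 0.00637% in each direction). For every other gene edgeR's quasi-likelihood test left the adjusted p at 0.555 or above. Unadjusted, 897 genes (5.71%) had p under 0.05, 399 with a higher (2.54%) and 498 with a lower interaction (3.17%), against 785 that a uniform p would give. DESeq2 likewise called 2 genes. The precision was limited, since the median standard error of an interaction was 0.193 on the log2 scale against 0.134 for D+Q over vehicle in MOV muscle. The 95% interval of the interaction stayed within a 2-fold change in either direction for 11150 genes (71.0%).

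Tcf15 (ENSMUSG00000068079, GRCm39 chr2:151985474-151991034, plus strand) encodes a basic helix-loop-helix transcription factor of somites. In adult heart and skeletal muscle it is known, with its partner Meox2, as a regulator of fatty acid transport genes in capillary endothelium. In vehicle sham mice it stood at 6.90, 5.64, 7.93, 6.47 and 6.13 CPM, and in D+Q sham mice at 11.9, 8.41, 10.1, 8.65 and 11.6 CPM. All 5 D+Q sham mice lay above all 5 vehicle sham mice. In vehicle MOV mice it stood at 8.56, 8.82, 9.80, 9.67 and 8.96 CPM, and in D+Q MOV mice at 6.38, 6.54, 6.80, 6.21 and 5.40 CPM. Here the order was turned, with all 5 D+Q mice below all 5 vehicle mice. Tcf15 was the only gene of 15700 whose treatments overlapped neither in sham nor in MOV and stood in opposite order (0.00637%), and 4 genes overlapped in neither and stood in the same order (0.0255%).

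Tcf15 responded to MOV in opposite directions, by 0.47 on the log2 scale with vehicle and by -0.69 with D+Q (adjusted p = 0.00110 and 1.11e-05 in edgeR's quasi-likelihood test). D+Q over vehicle was 0.62 in sham and -0.55 in MOV (adjusted p = 0.0333 and 0.292 in the same edgeR test). The interaction was -1.16 (SE 0.163, 95% interval -1.50 to -0.83), with an adjusted p of 0.00328 in edgeR's quasi-likelihood test. In a two-sided exact permutation test that exchanged treatments within each surgery, p was 3.15e-05, the smallest that its 63504 arrangements can give. That test takes as its null no effect of D+Q in either surgery. Its p is not adjusted over genes. Tcf15 was chosen by its interaction in these same mice, so the permutation adds no support to the call. Levels were low, with no more than 227 counts in any mouse.

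The genes named with Tcf15 in fatty acid handling did not follow it past the test. Meox2 had an interaction of 0.30 (SE 0.217), the fatty acid translocase Cd36 of -0.25 (SE 0.182), the binding protein Fabp4 of -0.22 (SE 0.113) and Gpihbp1, which holds lipoprotein lipase on capillaries, of -0.31 (SE 0.175). The lowest adjusted p of these 4 was 0.855 by edgeR's quasi-likelihood test. Of the 30 genes of fatty acid uptake and oxidation, Tcf15 included, 27 had an interaction below 0. These genes share libraries, so a like sign over them is a single observation. At an unadjusted p under 0.05, 2 were lower, against 3.17% of all genes. They were Tcf15, which was itself chosen by its interaction, and the pyruvate dehydrogenase kinase Pdk4. The count therefore rests on Pdk4 alone once Tcf15 is set aside. The median of the list was -0.15, beside -0.0122 over all genes.

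Sgk1 (ENSMUSG00000019970, GRCm39 chr10:21758083-21875802, plus strand) encodes a kinase related to AKT that is induced by glucocorticoids and by serum and is known for preserving muscle mass in hibernating animals. In vehicle sham mice it stood at 166, 139, 161, 173 and 103 CPM, and in D+Q sham mice at 72.9, 64.8, 67.8, 79.2 and 74.3 CPM. All vehicle sham mice lay above all D+Q sham mice. In vehicle MOV mice it stood at 61.9, 59.7, 52.1, 57.5 and 80.6 CPM, and in D+Q MOV mice at 72.9, 68.0, 73.8, 60.7 and 83.1 CPM. These groups overlapped with each other and with the D+Q sham mice, so that the vehicle sham mice stood alone as the high group. The fall with MOV was -1.25 on the log2 scale with vehicle (adjusted p = 3.81e-08 in edgeR's quasi-likelihood test), and with D+Q the MOV response was -0.00277 (95% interval -0.27 to 0.26). D+Q over vehicle was -1.05 in sham and 0.20 in MOV (adjusted p = 0.00107 and 0.607 in the same edgeR test). The interaction was 1.25 (SE 0.179, 95% interval 0.87 to 1.62, adjusted p = 0.00676 in edgeR's quasi-likelihood test). The two-sided exact permutation test gave p = 5.67e-04 before any adjustment over genes. Sgk1 too was chosen by its interaction in these mice, so this p adds no support to the call.

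**Figure D2:**
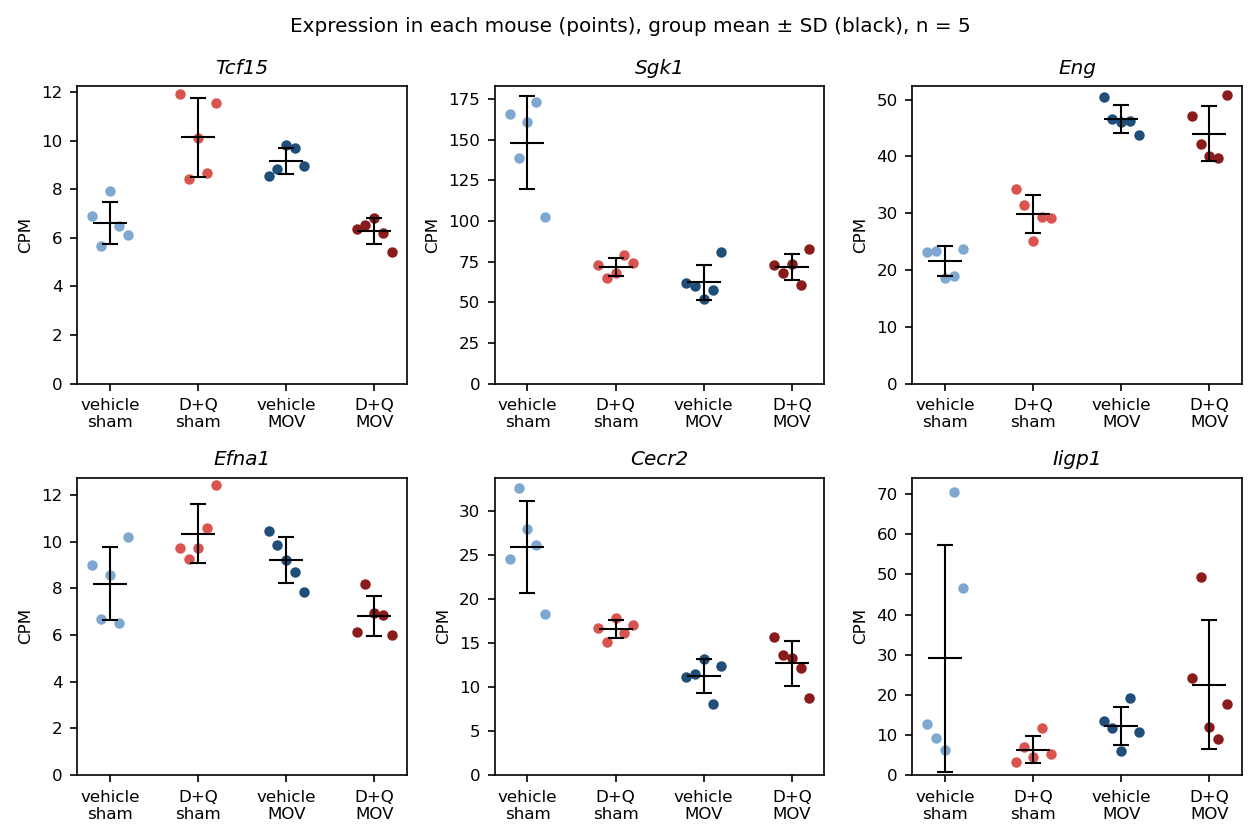
CPM (y axis, linear, from 0) of 6 genes in each of the 20 mice, with the mean ± SD of each group of 5 in black. For Tcf15 D+Q mice are above vehicle mice in sham and below them in MOV, for Sgk1 the vehicle sham mice stand alone at 103 to 173 CPM, and for Iigp1 vehicle sham mice 4 and 5 reach 70.7 and 46.5 CPM.

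Because Sgk1 is a textbook glucocorticoid target, the starts of its transcripts are shown. RefSeq (GRCm38.p6) holds 6 promoter windows for Sgk1, and the 250 bases before the start are printed for the 2 starts furthest downstream, on the plus strand, 5′ to 3′. Capitals mark a palindromic glucocorticoid response element (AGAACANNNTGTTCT), a TATA box (TATAAA) or a GC box (GGGCGG, on either strand).
chr10:21993640-21993889: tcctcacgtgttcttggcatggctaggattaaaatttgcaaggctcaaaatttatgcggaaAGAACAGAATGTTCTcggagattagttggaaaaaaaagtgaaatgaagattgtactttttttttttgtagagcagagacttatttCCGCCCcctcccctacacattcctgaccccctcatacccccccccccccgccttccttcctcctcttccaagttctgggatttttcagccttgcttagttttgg
chr10:21994416-21994665: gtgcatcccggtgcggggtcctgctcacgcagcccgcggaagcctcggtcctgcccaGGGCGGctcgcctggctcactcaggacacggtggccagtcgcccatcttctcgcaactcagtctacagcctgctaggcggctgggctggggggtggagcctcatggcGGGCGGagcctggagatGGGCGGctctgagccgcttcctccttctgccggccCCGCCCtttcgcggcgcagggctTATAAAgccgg
Only the first of these windows holds the palindrome, at bases 62 to 76, and the second holds GC boxes and a TATA box. Searched on both strands, the palindrome stood in 3 of 32851 promoter windows of 300 bases (0.00913%), the TATA box in 13.6% and the GC box in 35.7%. Of the glucocorticoid-responsive list, 20 genes have a promoter window and 1, Sgk1, held the palindrome. These matches describe letters, and counts per gene do not say which start was used.

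Among the glucocorticoid-responsive genes Sgk1 was the only adjusted call. Of 23 tested, 2 had a higher interaction at an unadjusted p under 0.05, against 2.54% of all genes, and 3 a lower one, against 3.17%. The list's median was -0.19. The clock gene Per1 had an interaction of 0.98 (SE 0.446) and was the other gene on the higher side. The metallothioneins Mt1 (-0.79, SE 0.278) and Mt2 (-0.87, SE 0.356), which bind zinc, and Pdk4 (-0.82, SE 0.371) were on the lower side. Fkbp5, a chaperone of the glucocorticoid receptor and a sensitive target of it, stood at -0.59 (SE 0.299). The lowest adjusted p of these 5 was 0.767 by edgeR's quasi-likelihood test.

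On the lower side, Tcf15 was followed by p by genes that did not pass the adjusted test, among them Eng of the endothelial marker list. Eng encodes endoglin, a co-receptor for TGF-β and BMP ligands on endothelial cells. It stood at 23.2, 23.4, 18.5, 19.0 and 23.7 CPM in vehicle sham mice and at 34.3, 31.4, 25.2, 29.3 and 29.1 CPM in D+Q sham mice, without overlap. In MOV muscle it stood at 50.4, 46.6, 46.0, 46.3 and 43.7 CPM with vehicle and at 47.2, 42.3, 40.0, 39.7 and 50.8 CPM with D+Q, where the groups overlapped. Its MOV response was 1.11 on the log2 scale with vehicle and 0.56 with D+Q, and the interaction was -0.55 (SE 0.124, adjusted p = 0.555 in edgeR's quasi-likelihood test, unadjusted p = 1.59e-04 in edgeR). The Eng locus overlaps Fpgs on the other strand, and whether counting used strand is not given in the sources used here.

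Efna1, the ephrin-A1 ligand of EPHA receptors, stood at 9.02, 6.68, 8.58, 6.52 and 10.2 CPM in vehicle sham mice and 9.71, 9.26, 9.71, 10.6 and 12.4 CPM in D+Q sham mice. In MOV muscle it stood at 10.4, 9.86, 9.23, 8.71 and 7.86 CPM with vehicle and 6.14, 8.18, 6.93, 6.88 and 6.02 CPM with D+Q. D+Q mice were mostly the higher ones in sham and mostly the lower ones in MOV, and the groups overlapped in both. The interaction of Efna1 was -0.77 (SE 0.180) and did not pass the adjusted test. The two-sided exact permutation test gave p = 5.67e-04 before any adjustment over genes. Efna1 was chosen by its interaction in these same mice, so this p adds no support.

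The 12 endothelial markers of the fixed list all had an interaction below 0, of which 3 (Eng, Cldn5 and Tie1) reached an unadjusted p under 0.05, against 3.17% of all genes, and 0 were called by edgeR or DESeq2. Genes of a list share libraries and cells, so a like sign over them is a single observation. The median interaction was -0.15, beside -0.0122 over all genes, and -0.0713 without D+Q sham mouse 1. D+Q over vehicle had a median of 0.14 in sham, with 11 of 12 above 0, and of -0.0756 in MOV, with 9 of 12 below 0. Cldn5, the tight-junction claudin of endothelium, had an interaction of -0.70 (SE 0.199), and the endothelial receptor kinase Tie1 of -0.40 (SE 0.187). The pan-endothelial markers Pecam1 and Cdh5 stood at -0.26 (SE 0.167) and -0.16 (SE 0.164).

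Summed over the 12 markers, vehicle sham mice held 319, 253, 266, 260.2 and 255 CPM and D+Q sham mice 356, 295, 247, 298 and 328 CPM. The groups overlapped, since D+Q sham mouse 3 was the lowest of all sham mice. The sums were 442, 444, 383, 410.0 and 384 CPM in vehicle MOV mice and 444, 411, 361, 349 and 427 CPM in D+Q MOV mice, which also overlapped. No marker was at 0. Whether the level of endothelial RNA had a part in the interaction of Tcf15 was not tested.

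**Figure D3:**
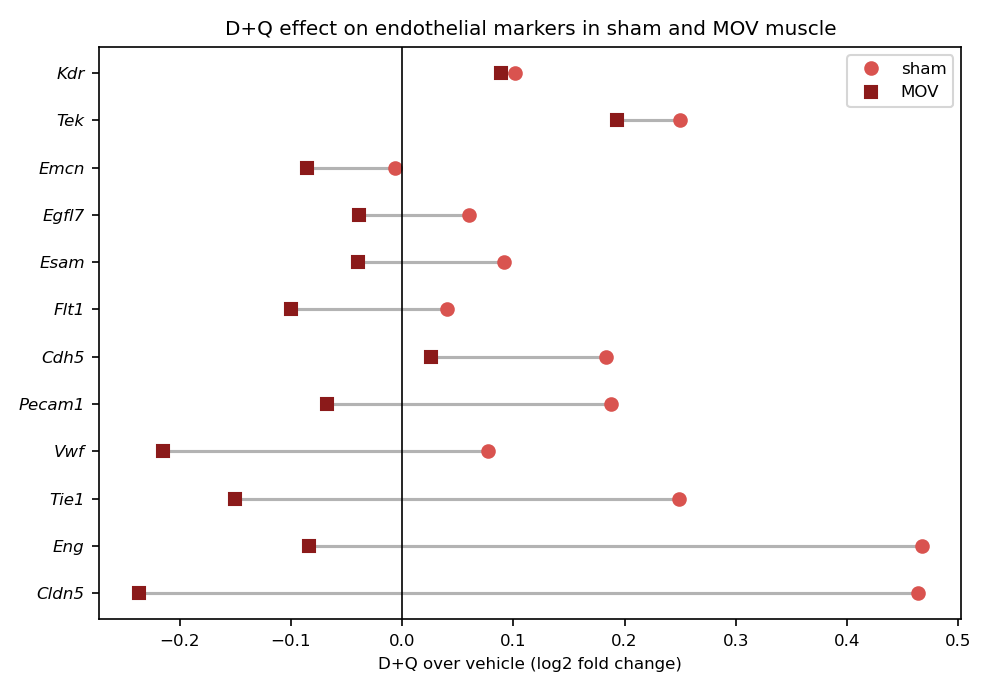
Log2 fold change of D+Q over vehicle (x axis) for each of the 12 endothelial markers in sham (circles) and in MOV (squares), 5 mice in each group, ordered by interaction. The MOV value is left of the sham value for every marker, by 0.70 for Cldn5 and by 0.16 for Cdh5.

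Other genes low by p were Tinagl1, a matricellular protein of basement membranes (-0.74, SE 0.177), the growth factor receptor Fgfr3 (-1.07, SE 0.258), the guanine nucleotide exchange factor Mcf2l (-1.09, SE 0.258), the sialomucin Podxl (-0.66, SE 0.162) and Hspa12b, a distant member of the 70-kDa heat shock family known from endothelium (-0.69, SE 0.173). The chromatin protein Hmga1 (-0.55, SE 0.142) and Prkar1a, a regulatory subunit of protein kinase A (-0.35, SE 0.0915), completed the 10 lowest. Each had an adjusted p of 0.555 in edgeR's quasi-likelihood test. Of the 10 lowest genes by p, 10 had a D+Q value above vehicle in sham and below it in MOV, which the choice by interaction favours. In 7 the sham groups did not overlap, beside 1.27% of all genes with D+Q higher, and in 2 the MOV groups did not overlap, beside 0.752% with D+Q lower. The choice by interaction in the same mice favours these counts as well, so they support nothing by themselves. Among the mural cell markers, 1 of 9 had a lower interaction at an unadjusted p under 0.05, beside 3.17% of all genes. It was the pericyte potassium channel subunit Kcnj8 (-0.44, SE 0.150). The list median was -0.14, or -0.33 without vehicle sham mouse 4 and -0.37 without vehicle sham mice 4 and 5. The angiogenic ligands and receptors had a median of -0.0138. At an unadjusted p under 0.05, 1 of 29 was higher and 2 were lower, beside 2.54% and 3.17% of all genes.

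On the higher side below Sgk1, Cecr2, which encodes a bromodomain protein of chromatin remodelling, was also highest in vehicle sham mice. It stood at 24.5, 32.5, 27.9, 26.0 and 18.3 CPM in vehicle sham mice and 16.7, 15.0, 17.9, 16.1 and 17.0 CPM in D+Q sham mice, without overlap. In MOV muscle it stood at 11.1, 11.5, 13.1, 8.05 and 12.3 CPM with vehicle and 15.6, 13.6, 13.3, 12.2 and 8.72 CPM with D+Q, with overlap. The interaction of Cecr2 was 0.82 (SE 0.206, adjusted p = 0.555 in edgeR's quasi-likelihood test).

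Casp8ap2, needed for histone mRNA processing, stood in the MOV mice at 5.30, 6.49, 5.51, 6.61 and 4.98 CPM with vehicle and 7.86, 7.61, 6.88, 8.93 and 7.48 CPM with D+Q, without overlap. Its interaction was 0.63 (SE 0.159). Tnfaip2, a gene induced by TNF, had an interaction of 0.88 (SE 0.233), and the small GTPase Rhof of 1.03 (SE 0.288). The N-terminal acetyltransferase Naa40 (0.45, SE 0.116), the noncoding RNA Dleu2 (0.56, SE 0.159) and the arachidonate-CoA ligase Acsl4 (0.40, SE 0.113) were further genes of the 10 highest, each with an adjusted p of 0.555 in edgeR's quasi-likelihood test. The loci of Hmga1, Prkar1a, Rhof and Dleu2 overlap other annotated genes on the opposite strand. So do further genes named in this report, among them Col4a2, Nr1d1, Hsp90ab1, Dnajb4, Sod1 and Itgbl1. Dleu2, Gabarapl1 and Yes1 overlap a predicted gene on the same strand.

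Clec4n, a C-type lectin receptor of myeloid cells, had the largest of these values at 2.48 (SE 0.695), but in D+Q sham mice it stood at 0, 0.183, 0, 0.0972 and 0.102 CPM, at most 3 counts, so that its size depends on the prior count. Of the 10 genes highest by p, 10 had a D+Q value below vehicle in sham and above it in MOV, which the choice by interaction again favours. In 4 of these the sham groups did not overlap, beside 0.739% of all genes with D+Q lower, and in 3 the MOV groups did not, beside 0.745% with D+Q higher. These counts are likewise favoured by the choice and support nothing by themselves.

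A call in sham and none in MOV does not show a difference, so the interaction of the genes that D+Q changed in sham muscle was examined. In this 20-mouse fit 19 genes (0.121%) were called in sham and 0 (0%) in MOV in edgeR's quasi-likelihood test, where 1413 genes (9%) and 1636 genes (10.4%) had an unadjusted p under 0.05 in sham and in MOV and DESeq2 called 96 and 14. Of the 19 genes, 2 had an adjusted interaction p under 0.05 and 18 an unadjusted p under 0.05. The interaction uses the same sham mice that chose these genes, so a low unadjusted p is favoured and supports nothing by itself. In MOV, 14 of the 19 kept the direction they had in sham. Over all genes the D+Q effects in sham and in MOV, which share no mice, had a Pearson's r of 0.111 across genes, which are not independent.

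Some matrix genes of the naming rule stood higher with D+Q in both surgeries, although 0 genes were called for D+Q in MOV. Fmod, the collagen-binding proteoglycan fibromodulin, was at 0.47 in sham and 0.44 in MOV, and Itgbl1, an integrin-like secreted protein, at 0.42 and 0.51 on the log2 scale. Their interactions were -0.0264 (95% interval -0.34 to 0.28) and 0.0808 (95% interval -0.24 to 0.40). Mmp14, the membrane-bound matrix metalloproteinase, stood at 10.0, 9.15, 9.93, 12.1 and 12.5 CPM in vehicle sham mice and 14.1, 20.8, 16.3, 19.0 and 18.4 CPM in D+Q sham mice. In MOV it stood at 129.9, 89.1, 151, 164 and 125 CPM with vehicle and 194, 141, 219.9, 142 and 179.6 CPM with D+Q. The sham groups did not overlap and the MOV groups did, and the interaction was -0.31 (95% interval -0.79 to 0.17, adjusted p = 0.919 in edgeR's quasi-likelihood test).

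The 9 genes taken from the study had interactions between -0.80 and 0.13, and the lowest adjusted p was 0.855 in edgeR's quasi-likelihood test. Among them is Cdkn1a, whose p21 protein the study stained without naming the gene. Igf1, the growth factor of muscle hypertrophy, was at 0.29 in sham and 0.42 in MOV for D+Q over vehicle, with an interaction of 0.13 (95% interval -0.37 to 0.63). Ddit4, an inhibitor of mTORC1, was at -0.23 and -0.43, with an interaction of -0.21 (95% interval -0.85 to 0.43). Cdkn1a, which encodes the senescence marker p21, was at 0.19 and -0.0440, with an interaction of -0.24 (95% interval -0.74 to 0.27). The proteoglycan Dcn (0.10), the protease Adamts1 (-0.17) and the plasminogen activator Plau (-0.0142) had interactions with standard errors of 0.207, 0.291 and 0.264. The sign of Plau, Fmod, Adamts1, Dcn, Igf1 and Itgbl1 turned under at least 1 alternative. Of the genes named in earlier work on these data, the matricellular Thbs1 (-0.21, SE 0.439), Soga1 (-0.42, SE 0.225) and the chemokine Ccl5 (-2.19, SE 1.12) did not pass the test. The intervals of Thbs1 and Ccl5 were wide, from -1.14 to 0.72 and from -4.51 to 0.14.

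Gene lists are described by the median interaction of their tested members, beside the all-gene median of -0.0122 and quartiles of -0.149 and 0.129. Of 41 lists, 28 had a median inside these quartiles. The genes of each list share libraries and cells, so a like sign over its members is a single observation. Many medians moved with single mice, so ranges with 1 mouse left out are given for several. The 38 collagens had a median of -0.0685, with D+Q over vehicle at 0.38 in sham and 0.31 in MOV. With 1 mouse left out the collagen median ran from -0.25 (without vehicle sham mouse 4) to -0.0147, and without vehicle sham mice 4 and 5 it was -0.25. The 44 other matrix genes had a median of -0.0845, with 0.40 in sham and 0.31 in MOV, and 0 of them had an unadjusted interaction p under 0.05. Their median ran from -0.20 (without D+Q sham mouse 1) to 0.0176 (without vehicle MOV mouse 4), and it was -0.22 without vehicle MOV mice 2 and 5. Col4a2, a basement membrane collagen (-0.39, SE 0.160), was one of 2 collagens on the lower side at an unadjusted p under 0.05, beside 3.17% of all genes. The 17 Adamts proteases had a median of -0.17, running from -0.24 to 0.00860 (without vehicle MOV mouse 4). On the lower side 3 had an unadjusted p under 0.05, beside 3.17% of all genes, among them Adamts12 (-0.56, SE 0.237) and Adamts14 (-0.75, SE 0.304). The metalloproteinases with their inhibitors and plasminogen genes stood at -0.0541, with a range of -0.12 to 0.0768.

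**Figure D4:**
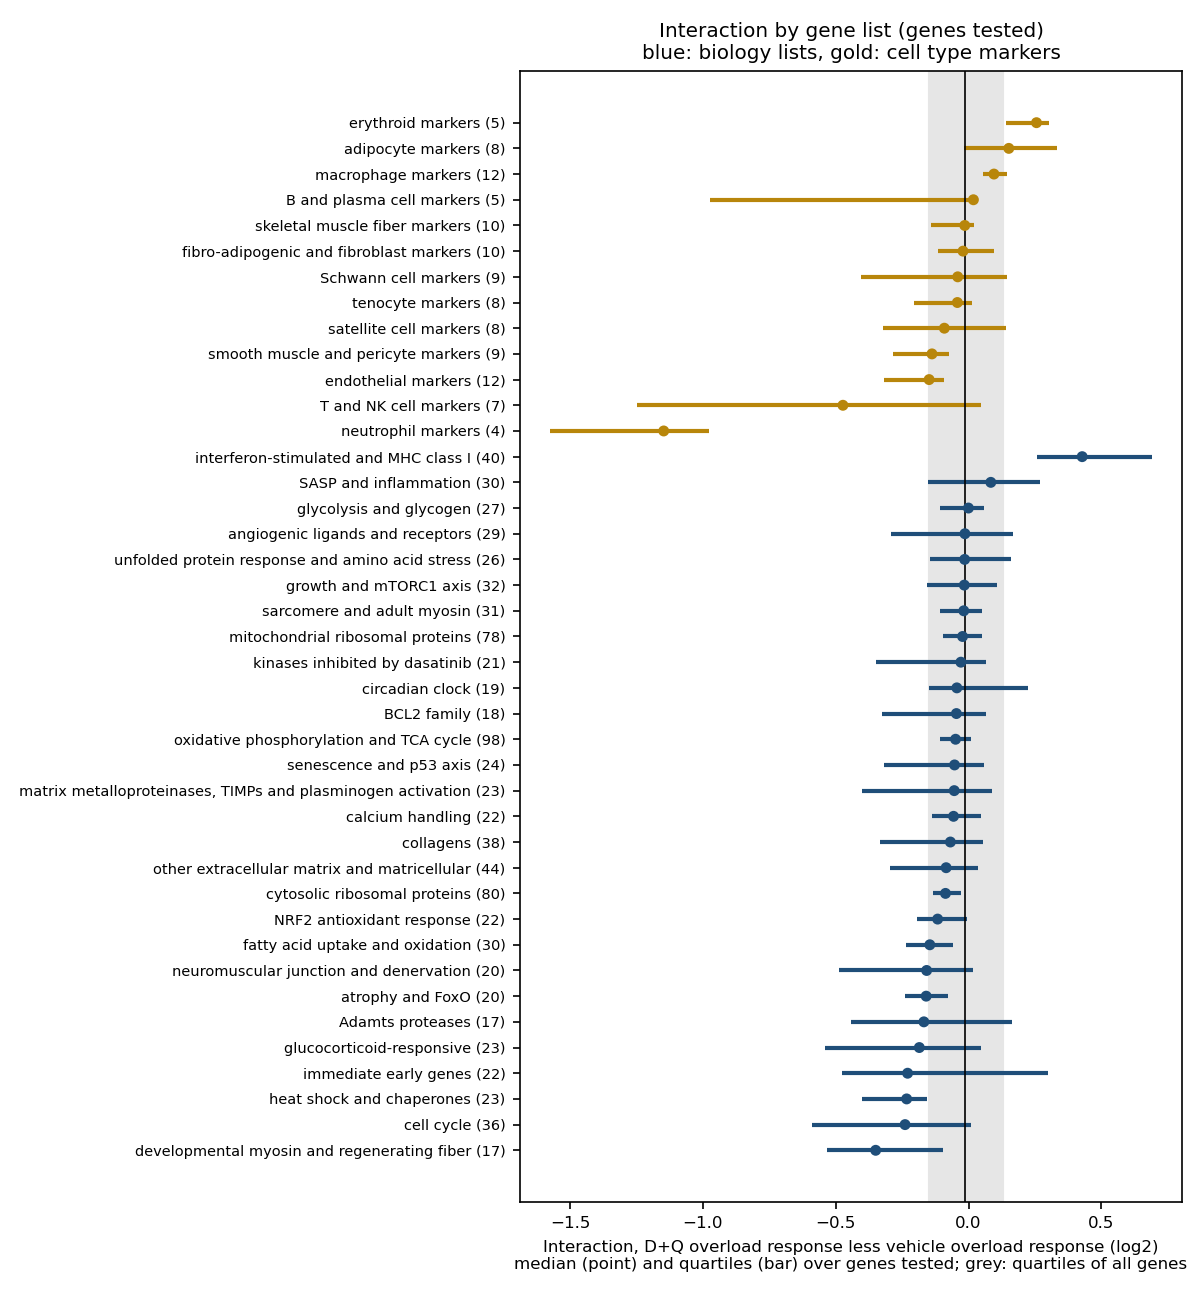
Interaction (x axis, log2) by gene list, with the median as a point and the quartiles as a bar over the tested genes of each list (their number in parentheses), biology lists in blue and cell type markers in gold. The grey band marks the quartiles of all 15700 genes at -0.149 and 0.129, and the interferon-stimulated list at 0.43 is the only biology list with its median above the band.

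The 98 genes of oxidative phosphorylation and the TCA cycle had a median D+Q over vehicle of -0.10 in sham and -0.15 in MOV and a median interaction of -0.0490. At an unadjusted p under 0.05, 5 were lower and 0 higher, beside 3.17% and 2.54% of all genes. Every one of the 98 had an interval within a 2-fold change. The complex I subunits Ndufa5 and Ndufa12 were at -0.24 (SE 0.0988) and -0.24 (SE 0.106), and the ATP synthase gene Atp5g2, which has near-identical copies of its mature product, at -0.56 (SE 0.205). The 78 mitochondrial ribosomal proteins had a median interaction of -0.0228 and the 80 cytosolic ones of -0.0870. Glycolysis and glycogen genes stood at -6.46e-04, with the phosphofructokinase Pfkl at -0.69 (SE 0.188) as their lowest by p.

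The interferon-stimulated and MHC class I list had the highest median of the biology lists, 0.43, and 39 of its 40 genes stood above 0. At an unadjusted p under 0.05, 5 were higher and 0 lower, beside 2.54% and 3.17% of all genes, and 0 were called by edgeR's quasi-likelihood test. Iigp1, an interferon-inducible GTPase, stood at 12.7, 9.15, 6.26, 70.7 and 46.5 CPM in vehicle sham mice and 3.26, 6.88, 4.49, 11.8 and 5.30 CPM in D+Q sham mice. In MOV it stood at 13.6, 11.7, 5.94, 19.1 and 10.7 CPM with vehicle and 24.3, 49.3, 12.1, 9.07 and 17.8 CPM with D+Q. Vehicle sham mice 4 and 5 stood far above the other sham mice, and D+Q MOV mouse 2 above the other MOV mice. The interaction of Iigp1 was 3.08 (SE 0.917), and without vehicle sham mice 4 and 5 it was 1.46.

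Igtp, another interferon-inducible GTPase whose locus overlaps Irgm2, stood at 12.7, 12.8, 12.3, 59.7 and 43.2 CPM in vehicle sham mice and 10.7, 10.5, 6.29, 19.2 and 10.9 CPM in D+Q sham mice. Vehicle sham mice 4 and 5 were again the highest sham mice. The interaction of Igtp was 1.57 (SE 0.625) and went to 0.41 without them. For the list the median was 0.14 without them and 0.24 without vehicle MOV mice 2 and 5. Macrophage markers summed to 67.0 to 173 CPM in vehicle sham mice and 75.0 to 183 CPM in D+Q sham mice, and to 338 to 1011 CPM and 739.7 to 885 CPM in vehicle and D+Q MOV mice. Their median interaction was 0.0954, with 11 of 12 above 0 and 0 at an unadjusted p under 0.05. It ran from -0.0801 to 0.30 with 1 mouse left out and was -0.29 without vehicle sham mice 4 and 5, so its direction was not stable. The part of macrophages in the interferon values was not tested.

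Heat shock and chaperone genes stood on the lower side, with a median of -0.23 and 21 of 23 below 0. Of these, 2, Dnajb4 (-0.42) and Hsp90ab1 (-0.29), had an unadjusted p under 0.05, beside 3.17% of all genes. Cryab, the small heat shock protein of the sarcomere, stood at 546, 848, 706, 509.7 and 564 CPM in vehicle sham mice and 634, 547, 492, 562 and 495 CPM in D+Q sham mice. In MOV it stood at 805, 1341, 689, 711 and 2490.3 CPM with vehicle and 528, 604, 501, 597 and 745 CPM with D+Q. Vehicle MOV mice 2 and 5 were the high ones, and the rest of the vehicle MOV mice overlapped with D+Q MOV mouse 5. The interaction of Cryab was -0.80 (95% interval -1.67 to 0.0601) with all mice and -0.0946 without vehicle MOV mice 2 and 5, and the median of the list was then -0.0531. Cryab overlaps Hspb2 on the other strand.

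Genes of regenerating and remodelling fibers were also on the lower side. The developmental myosin list had a median of -0.35, with 14 of 17 below 0, beside a median MOV response of 3.52 with vehicle and 3.36 with D+Q on the log2 scale. By limma-voom the median was -0.21. Csrp3, the muscle LIM protein of the Z-disc, stood at 57.5, 72.2, 73.5, 63.4 and 95.8 CPM in vehicle sham mice and 121, 96.1, 69.1, 88.9 and 101 CPM in D+Q sham mice. In MOV it stood at 441, 844, 735, 546 and 1377 CPM with vehicle and 405, 587, 333, 448 and 610.2 CPM with D+Q, with overlap in both surgeries. The interaction of Csrp3 was -1.12 (SE 0.372) with an adjusted p of 0.718 in edgeR's quasi-likelihood test, and -0.67 without vehicle MOV mice 2 and 5. Ncam1, the adhesion molecule of denervated and regenerating fibers, stood at -0.54 (SE 0.241). The sarcomere list had a median of -0.0181. Of its 31 genes, 1 was lower and 0 higher at an unadjusted p under 0.05, beside 3.17% and 2.54% of all genes. The lower one was skeletal actin Acta1 at -0.31 (SE 0.126).

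**Figure D5:**
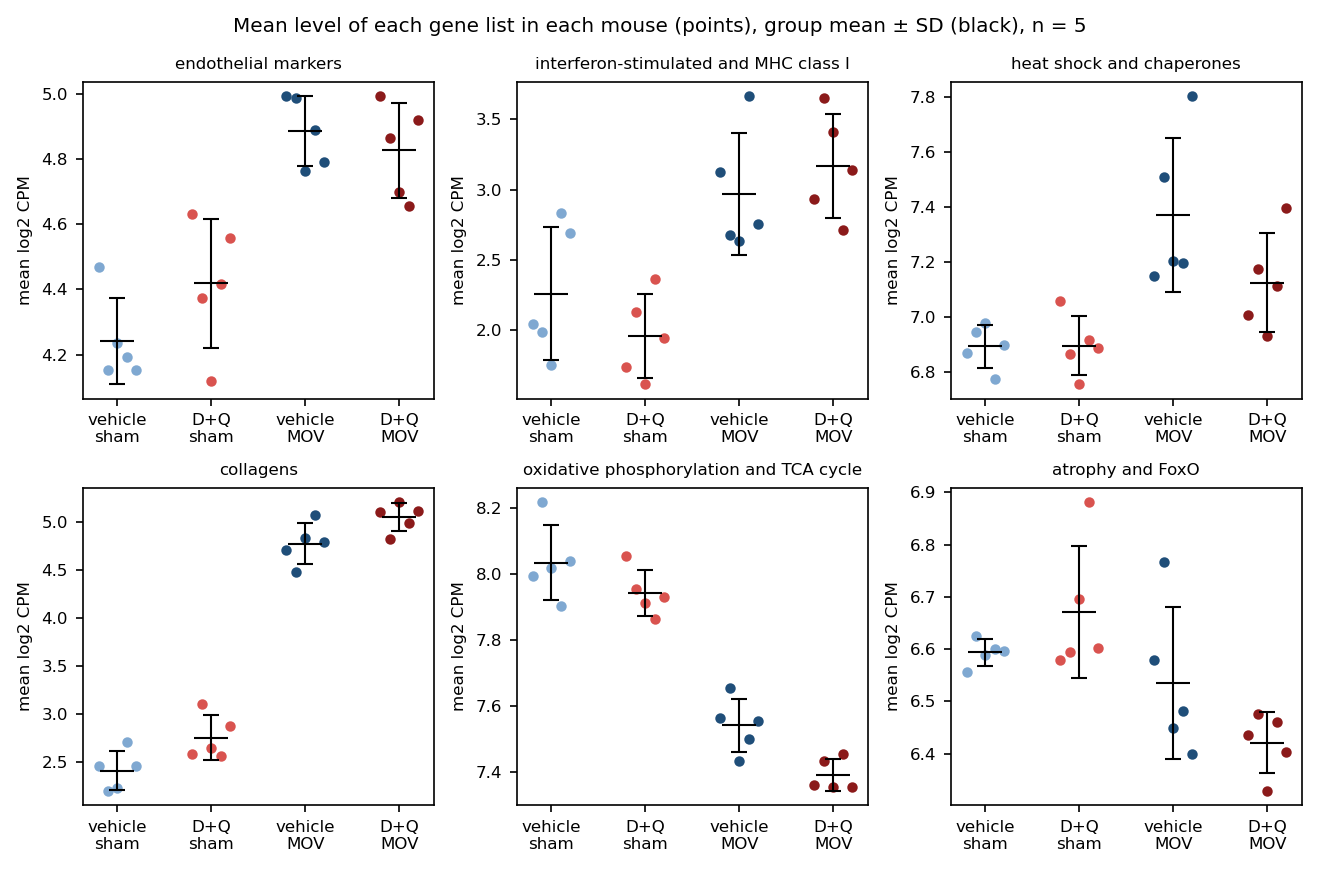
Mean log2 CPM over the genes of 6 lists (y axis, with its own range in each panel) in each of the 20 mice, with the mean ± SD of each group of 5 in black. Vehicle sham mice 4 and 5 stand above the other sham mice of the interferon list, and vehicle MOV mice 2 and 5 above the other mice of the heat shock list.

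In the atrophy and FoxO list, 4 of 20 genes had a lower interaction at an unadjusted p under 0.05, against 3.17% of all genes. Among these 4 were Gabarapl1 and the metallothioneins Mt1 and Mt2, which are also members of the glucocorticoid-responsive list. The median of the list was -0.16, or -0.0833 without vehicle MOV mouse 2. Gabarapl1, an autophagosome protein, stood at 50.8, 59.6, 60.8, 54.0 and 63.2 CPM in vehicle sham mice and 68.1, 57.0, 68.5, 85.3 and 63.9 CPM in D+Q sham mice. In MOV it stood at 68.4, 84.9, 66.9, 71.7 and 82.4 CPM with vehicle and 60.2, 69.6, 52.0, 62.3 and 69.8 CPM with D+Q, with overlap in both surgeries. Its interaction was -0.50 (SE 0.139, adjusted p = 0.555 in edgeR's quasi-likelihood test). The antioxidant genes driven by NRF2 had a median of -0.12, or -0.0280 without D+Q sham mouse 4. On the lower side at an unadjusted p under 0.05 were 3 of 22, against 3.17% of all genes, sulfiredoxin Srxn1 (-0.82, SE 0.249), catalase Cat (-0.40, SE 0.154) and superoxide dismutase Sod1 (-0.24, SE 0.0891).

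Lists tied to the senolytic itself gave no adjusted calls in edgeR's quasi-likelihood test. Of 24 senescence and p53 genes, 2 were higher, Gadd45g (0.87) and Trp53inp1 (0.47), and 2 lower, Sesn1 (-0.48) and Gadd45a (-0.76), at an unadjusted p under 0.05, against 2.54% and 3.17% of all genes, and the median was -0.0529. All 4 encode stress proteins induced by p53 or by growth arrest. The SASP and inflammation list stood at 0.0837, running from -0.0298 to 0.20 with 1 mouse left out, with 0 of 30 genes at an unadjusted p under 0.05, and the BCL2 family, which holds the survival factors of senescent cells, at -0.0459, with a range of -0.11 to 0.0321. The kinases that dasatinib inhibits had a median of -0.0290, running from -0.21 (without vehicle MOV mouse 2) to 0.0136 (without vehicle MOV mouse 4). It was -0.25 without vehicle sham mice 4 and 5 and -0.31 without vehicle MOV mice 2 and 5. Single kinases were Yes1 (0.46, SE 0.185) and Abl1 (0.24, SE 0.115) on the higher and Ephb4 (-0.43, SE 0.161) on the lower side at an unadjusted p under 0.05. These were 2 and 1 of 21, beside 2.54% and 3.17% of all genes. The growth and mTORC1 list stood at -0.0162, and 28 of its 32 genes had an interval within a 2-fold change.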

How the data were processed

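Plantaris RNA of 20 mice was sequenced (cDNA libraries, 1 per mouse). The deposited values are estimated counts per gene, 29.8% of them not whole, that the authors made with STAR and Partek E/M. The submitters' processing notes name STAR 2.7.8a, Partek and GRCm39. Strand use in counting is not given in the sources used here. The 10 largest values were deposited to 3 digits.

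Counts were rounded, filtered to 10 counts in at least 5 mice, scaled by TMM and fitted to 4 group means over all mice with edgeR 4.0.16's robust quasi-likelihood test in R 4.3.3, with Benjamini-Hochberg adjustment over 15700 genes. SE is the absolute log2 fold change over the square root of F. CPM use TMM-scaled totals. Single genes were also tested by exact permutation of treatment within each surgery (prior count 2). Code was tested on simulated data. Alternatives used DESeq2 1.42.0, limma 3.58.1 (voom), RLE factors, library totals, other filters, no robust estimation, a replicate block, GC and length, the 10 mice compared alone, and mice left out. Replicate numbers were taken from the titles, where nothing ties mice across groups.

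Genes named were those of the study, those of an earlier description, interaction calls, the 10 lowest p in each direction (at least 1 CPM) and up to 3 per list and direction at an unadjusted p under 0.05. Cdkn1a was counted with the genes of the study for the p21 protein that it stained. Meox2, Cd36, Fabp4, Gpihbp1, Pecam1, Cdh5 and Fkbp5 were added for context after their values were seen. The contrast and lists were chosen with earlier results of these data known. Promoters are from RefSeq, GRCm38.p6. A few genes that the rule names are not reported here. P-values measure the spread between mice.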

Additional observations from a re-analysis of the deposited data

Results flagged for a closer look

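The effect of D+Q differed between sham and MOV muscle by a test of the difference itself for Tcf15, with an interaction of -1.16 on the log2 scale, and for Sgk1, with 1.25.

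In 19 of 296 groups (74 named genes in 4 groups of 5 mice) 1 mouse stood apart from the other 4 by Dixon's criterion, which chance alone meets in about 1 of 20 groups. In D+Q MOV mice these were Podxl at 51.1 CPM, beside 37.4 to 41.0 CPM in the others, Hmga1 at 24.4 CPM, Thbs1 at 492 CPM and Adamts12 at 17.9 CPM. Also in D+Q MOV mice, Sesn1 stood apart at 31.0 CPM, Gadd45a at 27.1 CPM and Yes1 at 17.1 CPM. In vehicle MOV mice they were Pdk4 at 766 CPM, Abl1 at 59.9 CPM and Srxn1 at 78.0 CPM. In D+Q sham mice they were Per1 at 39.7 CPM, Acta1 at 23637 CPM and Cat at 165 CPM. In vehicle sham mice they were Rhof at 1.59 CPM, Pdk4 at 746 CPM, Fabp4 at 110.0 CPM, Dnajb4 at 61.7 CPM, Atp5g2 at 49.3 CPM and Ndufa12 at 164 CPM. No group of Tcf15 or Sgk1 stood out in this way.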

How the results depend on the processing

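Tcf15 kept an adjusted p under 0.05 in 31 of 31 refits of the interaction, between -1.23 and -1.10 with 1 mouse left out, and Sgk1 in 30 of 31, between 1.18 and 1.36. The exception was the replicate block, under which Sgk1 stood at 1.25 with an adjusted p of 0.0716 and the interaction count was 1. Of 30 same-number correlations between groups, 2 were above 0.1. Mice of unlike number were not compared, so these correlations cannot decide whether the numbers pair mice. Pairing by the numbers in the sample descriptions, which differ from those in the titles, was not examined. The other 72 named genes were called in 0 of 2231 refits. The interaction count was 2 to 3 with 1 mouse left out, and the unadjusted count 798 to 1232, the highest without vehicle MOV mouse 4. Calls for D+Q within a surgery depended on the setting. In MOV they numbered 14 by DESeq2, 2 by limma-voom and 0 to 39 with 1 mouse left out, 39 being without vehicle MOV mouse 4. In sham they numbered 96 by DESeq2, 1 with library totals, 9 without robust estimation, 1 after GC and length correction, 30 in the 10 sham mice alone and 3 to 42 with 1 mouse left out, 42 being without vehicle sham mouse 5. The replicate block was fitted as a term for the numbers 1 to 5. Signs turned for Plau (0.15 by limma-voom, 0.0209 under the replicate block, -0.14 to 0.21 with 1 mouse left out), Fmod (0.0101 after GC and length correction, -0.12 to 0.0337), Adamts1 (-0.37 to 0.00860) and Thbs1 (-0.50 to 0.0544). Leaving out pairs of mice was chosen after seeing the data. Without vehicle sham mice 4 and 5, Dcn was -0.0255, Igf1 -0.0465 and Itgbl1 -0.10. Without vehicle MOV mice 2 and 5, Dcn was -0.0563, Igf1 -0.0551 and the sham count 44. The causes were not tested. Depth limits Tcf15, at no more than 227 counts, and Clec4n.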

Other observations

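Lists outside the main account had few members at an unadjusted p under 0.05 for the interaction, and 0 of their genes were called by edgeR's quasi-likelihood test. Neuromuscular junction and denervation genes had a median of -0.16, with 4 of 20 lower and 0 higher, beside 3.17% and 2.54% of all genes. Cell cycle genes had a median of -0.24, with 2 of 36 lower and 1 higher, D+Q over vehicle standing at 0.14 in sham and -0.18 in MOV. Immediate early genes, which stood at 0.43 with D+Q in sham and at 0.25 in MOV, had a median interaction of -0.23 with 1 of 22 higher, and of 0.38 without vehicle MOV mouse 4. Circadian clock genes had a median of -0.0442, with Per1 (0.98) and the repressor Bhlhe40 (0.37) on the higher and the nuclear receptor Nr1d1 (-0.42) on the lower side. The unfolded protein response (-0.0148) and calcium handling (-0.0567) stood near the all-gene median of -0.0122.

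Among markers of other cell types, fibro-adipogenic and fibroblast genes stood at 0.32 with D+Q in sham and 0.30 in MOV, with a median interaction of -0.0210 over 10 genes that ran from -0.14 to 0.16 with 1 mouse left out. Tenocyte markers stood at 0.44 in both, with a median interaction of -0.0422. Satellite cell, Schwann cell and adipocyte markers had medians of -0.0913, -0.0409 and 0.15, of which the Schwann cell and adipocyte values changed sign with 1 mouse left out (-0.38 to 0.16 and -0.0370 to 0.36). The 4 neutrophil markers, at -1.15, summed to between 0.460 and 7.23 CPM, and S100a9 stood at -2.83. T and NK cell markers stood at -0.47 over 7 genes, B and plasma cell markers at 0.0181 and erythroid markers at 0.26 over 5 genes each. The direction of all 3 turned with 1 mouse left out: T and NK cell markers ran from -0.87 to 0.31 (without vehicle MOV mouse 4), B and plasma cell markers from -0.62 (without vehicle sham mouse 5) to 0.0148, and erythroid markers from -0.0855 (without vehicle sham mouse 5) to 0.83. Without vehicle sham mice 4 and 5, T and NK cell markers stood at -2.32 and B and plasma cell markers at -0.85.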
